A study of Mus musculus with 4 samples.

Results

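The genes described here are 31 markers of microglia and related macrophages, read in glial cultures that had been depleted of microglia. They were chosen by name: every non-control probe whose gene name in the array files is one of the 31 was taken, which gave 44 probes, against 39429 probes and 29676 gene names on the array in all. All 31 genes were found. The cultures, called astrocyte-enriched cultures (AECs), were mixed glial cultures from the cortex of newborn ICR mice, with pups taken without regard to sex, and PLX3397 (pexidartinib), which blocks the receptor CSF1R, had been added to the medium to remove microglia. Untreated AECs (*n* = 2) were compared with AECs exposed to oxygen–glucose deprivation (OGD), that is, medium without glucose under hypoxia, for 15 h (*n* = 2). PLX3397 treatment was shared by both groups. No undepleted culture was among the arrays analysed here, so the effect of PLX3397 itself was not measured, and the values show which microglial transcripts were still read after depletion and how they stood after OGD.

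Microglia are the resident macrophages of the brain, and they need signaling through the receptor CSF1R, which is activated by the ligands CSF1 and IL-34, to survive. Inhibitors of this receptor therefore remove most of them from tissue and from mixed glial cultures. In healthy brain, microglia are recognised by a set of surface receptors such as P2RY12, TMEM119 and CX3CR1, by the transcription factors PU.1 (*Spi1*), IRF8 and SALL1, and by immune receptors that signal through the adaptors TYROBP and FCER1G. They are also the main source of complement C1q in the brain. Several of the 31 genes are not specific to microglia: *Cd68*, *Ctss*, *Lyz2* and *Fcgr3* are shared by macrophages in general, *Mrc1* and *Cd163* mark macrophages at the borders of the brain, and SALL1 is also found in neural progenitors.

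Each RNA sample was labeled with the dye Cy3 and hybridized to its own array, and expression was read as the processed signal, the brightness of a spot after background subtraction, in arbitrary units. The scanner software marked a spot as well above background or not. Of all non-control spots, 73.7% and 73.0% were marked so in the untreated samples, against 66.2% and 64.5% in those exposed to OGD. The lowest probe signal marked well above background lay between 6.33 and 7.34 on the 4 arrays, called the detection limit below, and the 153 negative control spots had medians between 1.47 and 1.70. The 75th percentile of the signal, used for normalization, was 2135 and 2164 in untreated AECs and 887 and 776 after OGD, a shift of −1.37 on the log2 scale, whereas spiked-in control RNA shifted by −0.08. A normalized log2 fold change is therefore a change relative to the rest of the array. The median over all 21009 genes tested was 0.16 with the 75th percentile and −1.13 with the spike-in controls as reference, and where the direction of a microglia gene depends on the choice, both are given.

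In untreated AECs, transcripts of most microglia genes were still detectable, many of them dim. Of the 31 genes, 25 (80.6%) were detected in both untreated samples, that is, with at least 1 probe well above background, compared with 70.5% of all genes of the array. After OGD, 16 genes (51.6%) were well above background on both arrays, against 62.4% of all genes. By array, the number of microglia genes detected was 25 and 26 in untreated AECs and 21 and 16 after OGD, so the second OGD array showed the fewest. In all, 9 genes were detected on both untreated arrays but not on both OGD arrays, and no gene (0) showed the reverse. Over the whole array, 2556 of the 20922 genes detected on both untreated arrays were not detected on both OGD arrays, and 146 genes showed the reverse. These 9 were *Cx3cr1*, *Gpr34*, *Fcrls*, *Trem2*, *Ptprc*, *Cd53*, *C1qc*, *Irf8* and *Mrc1*. Detection was also lower over the whole array after OGD. Whether the signal of these 9 genes came from microglia was not tested, and fewer cells and less RNA per cell cannot be told apart.

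A signal of at least 10 times the detection limit was reached by 25.8% of the 31 genes in untreated AECs, against 54.5% of all genes, and a signal of at least 100 times the limit by 12.9% against 38.4%. Brightness also depends on the probe, so these shares describe how far the readings lay above background and not amounts of RNA. By their brightest probe, 5 genes were below the limit, 8 were between 1 and 2 times the limit, 10 between 2 and 10 times, 4 between 10 and 100 times, and 4 above 100 times. The 4 above 100 times were *Siglech*, *Itgam*, *Sall1* and *Cd68*, and the 4 in the class below were *Olfml3*, *Mpeg1*, *Tmem119* and *Ctss*. *Siglech* and *Itgam* reached the top class by probes that share sequence with other genes, described below, and their brightest other probes were at 15.4 and 4.85 times the limit, which leaves *Sall1* and *Cd68* above 100 times. The only *Sall1* probe shares a stretch of 16 bases with a probe of 1 other gene.

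**Figure D1:**
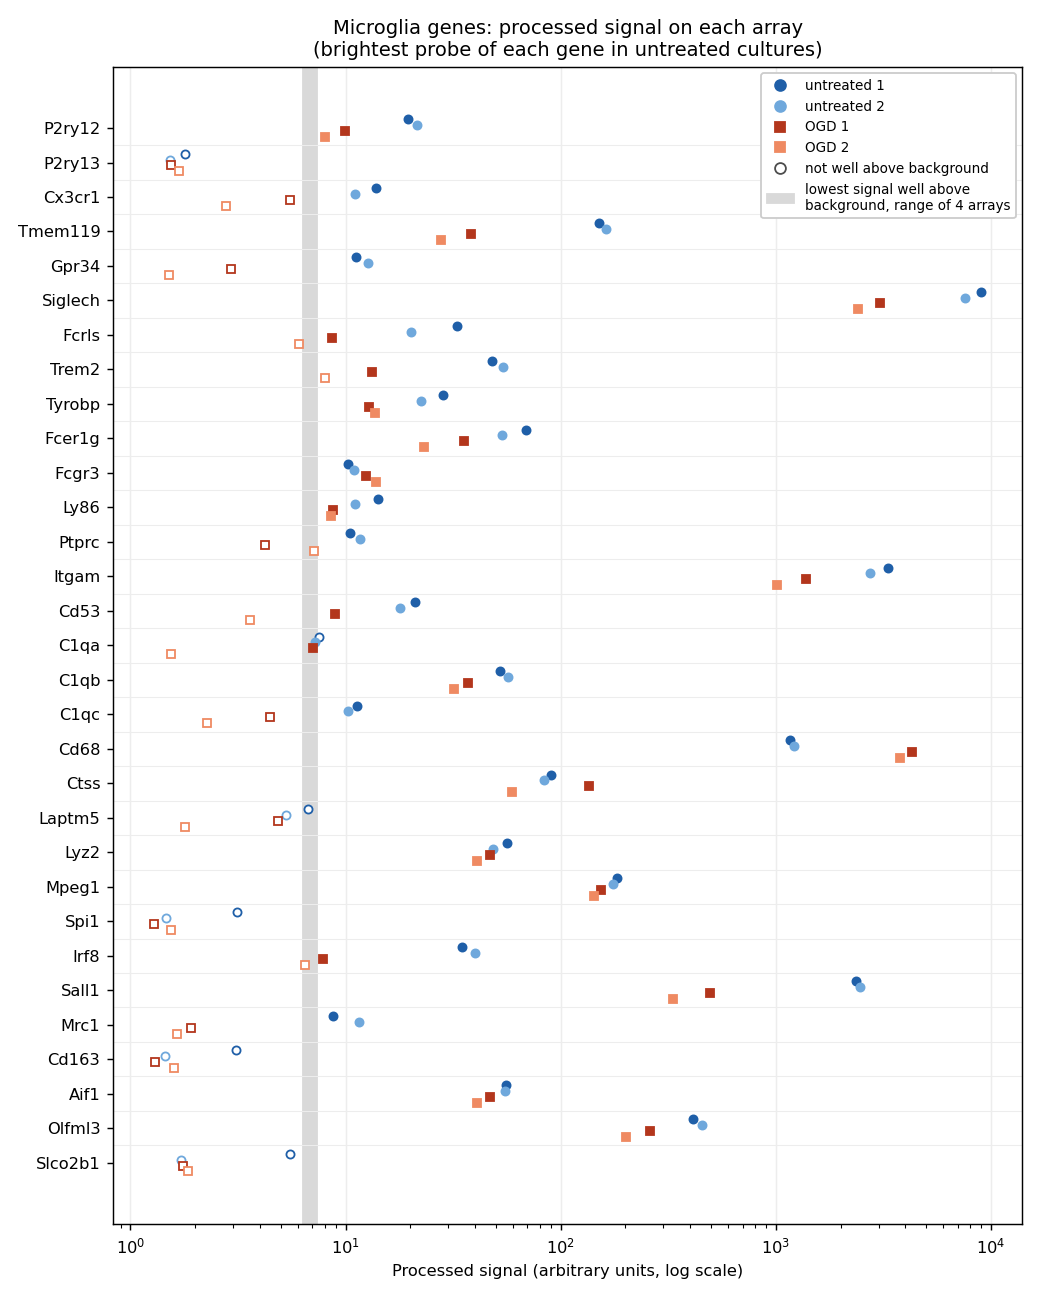
Processed signal (log scale, arbitrary units) of the brightest probe of each of the 31 microglia genes on the 2 untreated arrays (blue circles) and the 2 OGD arrays (red squares), with open symbols where the probe was not well above background and a grey band for the detection limit of the arrays. Most genes lie within 10 times the band, *Siglech*, *Itgam*, *Sall1* and *Cd68* stand far to the right, and *Cd68* is the one bright gene whose red squares lie to the right of its blue circles.

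At the bottom of the range were genes at background in both groups. *Spi1*, which encodes the myeloid lineage factor PU.1, gave 3.13 and 1.47 in untreated AECs and 1.29 and 1.54 after OGD. *P2ry13*, a purinergic receptor, gave 1.80, 1.53, 1.54 and 1.69 in the same order. The scavenger receptor *Cd163* gave 3.10, 1.45, 1.30 and 1.59. All of these readings lay below the detection limit and close to the negative controls. The lysosomal gene *Laptm5* reached at most 6.70 and the transporter gene *Slco2b1* at most 5.54 with either of their 2 probes, and neither was well above background on any array. *C1qa* was marked well above background on 1 array of each group, with signals of 7.54, 7.17, 7.03 and 1.54. A reading at background with 1 probe does not show that a transcript was absent.

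Probe sequences are shown for the genes on which the reading of residual signal turned: *Itgam* and *Siglech*, the brightest surface markers, and *Spi1*, a defining factor at background. They are the 60-base probe letters in the deposited files, read 5′ to 3′ (positions on mm9, plus strand, as the files give them). Capitals mark stretches in which 16 or more consecutive bases also occur in probes of other genes. For 3 of the probes, 30 bases are given.
Itgam A_55_P1977934 (chr7:135261755-135261814), bases 1 to 30: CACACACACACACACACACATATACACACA
Itgam A_55_P1977929 (chr7:135260275-135260334): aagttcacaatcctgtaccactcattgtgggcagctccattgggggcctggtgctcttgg
Itgam A_55_P1977926 (chr7:135212140-135212199): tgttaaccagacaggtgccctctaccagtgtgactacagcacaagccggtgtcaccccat
Siglech A_55_P2141013 (chr7:63034088-63034147), bases 31 to 60: tctgtctcAAAGAAAGAAAGAAAGAAAGAA
Siglech A_55_P2141008 (chr7:63028608-63028667), bases 1 to 30: attggattaatccagtgtgtgaacagtctt
Spi1 A_52_P498086 (chr2, between 90939665 and 90953452): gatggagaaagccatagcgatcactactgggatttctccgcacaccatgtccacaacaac

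The brightest probes of *Itgam* and *Siglech* were the repeat-bearing ones. The bright *Itgam* probe opens with a CA repeat, and 31 of its bases are shared with probes of 37 other genes. All 37 of those probes were well above background on both untreated arrays, and 36 on all 4 arrays. The bright *Siglech* probe shares 38 bases, among them its AAAG repeat, with probes of 7 other genes, of which 5 were well above background on both untreated arrays and 4 on all 4 arrays. Of the 44 microglia probes, 40 shared no stretch of 16 bases with a probe of another gene, and these 2 were the ones that shared it with probes of at least 5 other genes, as 2.73% of all probes on the array did. The probes of *Sall1* and *Lyz2* each shared 16 bases with a probe of 1 other gene. That other probe was well above background on all 4 arrays for *Lyz2*, and not on both untreated arrays for *Sall1*. Whether RNA of other genes bound to any of these probes was not tested.

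The probes of the same gene without shared stretches were far dimmer. For *Itgam* (CD11b, an integrin of myeloid cells), the repeat-bearing probe read 3328 and 2726 in untreated AECs and 1376 and 1015 after OGD. The probe A_55_P1977929 read 36.4 and 30.1, then 13.9 and 18.5, and A_55_P1977926 read 12.2 and 7.26, then 6.01 and 6.19. For *Siglech*, a lectin of the microglial surface, the repeat-bearing probe read 8993 and 7596 in untreated AECs and 3059 and 2404 after OGD. A_55_P2141008 read 121 and 91.5, then 72.0 and 80.1. The remaining *Siglech* probe was at background, at 5.16 or less on every array. With the repeat-bearing probes left out, *Itgam* and *Siglech* were still among the 25 genes detected on both untreated arrays.

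**Figure D2:**
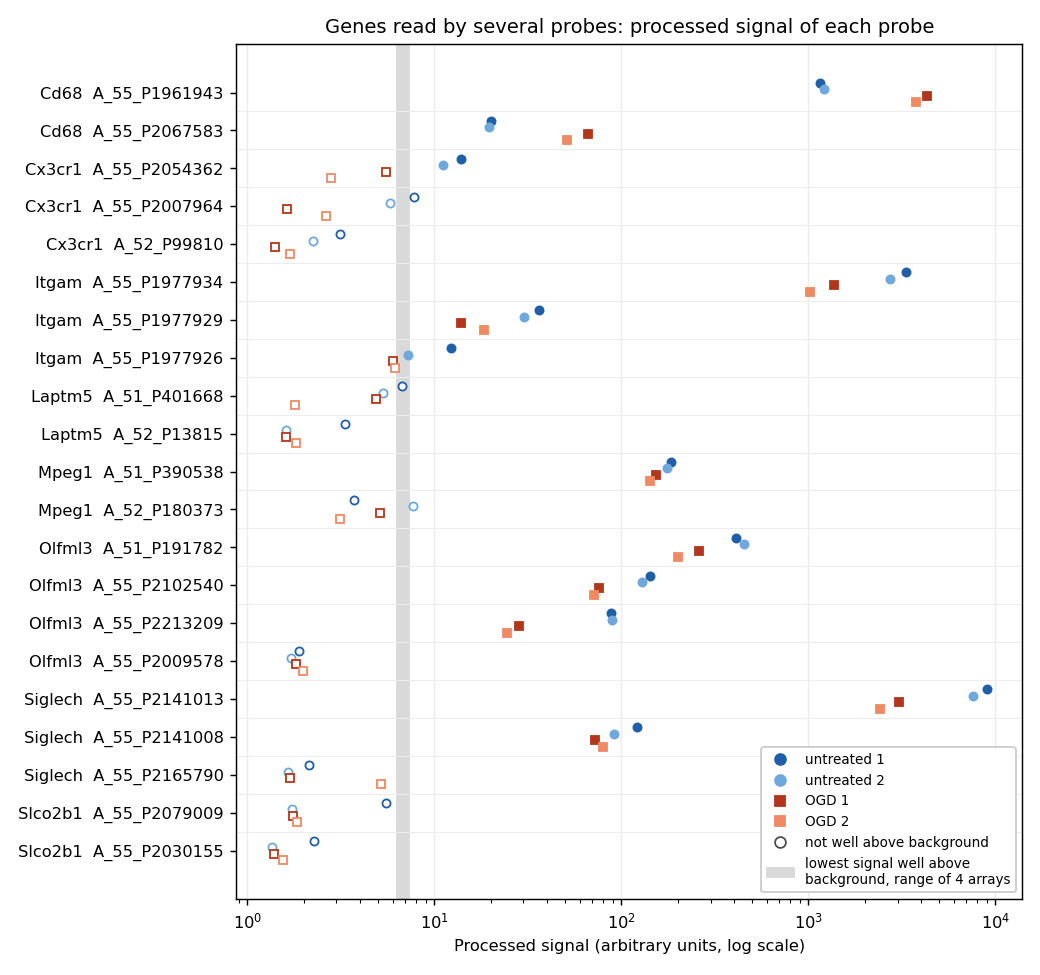
Processed signal (log scale, arbitrary units) of every probe of the microglia genes that have more than 1 probe, on the untreated arrays (blue circles) and the OGD arrays (red squares), with open symbols where a probe was not well above background and a grey band for the detection limit. The brightest and the next probe of *Siglech*, *Itgam* and *Cd68* lie far apart, and single probes of *Olfml3*, *Mpeg1* and *Siglech* lie at or below the band.

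Other genes with several probes also read unevenly. *Cd68* read 1157 and 1213 in untreated AECs with one probe and 20.1 and 19.7 with the other, and neither shared a stretch with other genes. *Cx3cr1*, the fractalkine receptor, was well above background with 1 of its 3 probes in untreated AECs, at 13.8 and 11.1, and with none (0) after OGD, when that probe read 5.51 and 2.79. *Mpeg1* (perforin-2, a pore-forming protein of macrophages) read 183 and 176 with one probe and was at background with the other. When a gene counted as detected only with all its probes well above background, 21 of the 31 genes passed in untreated AECs and 12 after OGD. By the same rule, 19416 of the 29676 genes of the array passed in untreated AECs. Counted by probe, 70.5% of the microglia probes were well above background on both untreated arrays and 47.7% on both OGD arrays. Over all probes these shares were 71.1% and 62.7%.

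Next, the change after OGD was examined. The 25 genes detected on both untreated arrays entered the test, and the other 6 were not, among them *C1qa*, read on 1 array of each group. Relative to the 75th percentile, 9 of the 25 genes were higher after OGD (limma, adjusted *p* under 0.05), 6 were lower and 10 did not pass the test. Over all genes tested, 37.1% were called higher and 27.9% lower, so the share of microglia genes called in either direction was close to that of the array as a whole. Their median log2 fold change was 0.18 compared with 0.16 for all genes, with 13 genes above and 12 below the median of all genes. The genes dim after OGD entered through their untreated signal alone. Among the 16 genes well above background on all 4 arrays, 9 were higher and 2, *Sall1* and *Tmem119*, lower, beside 41.0% and 26.9% of all genes that met this condition, with medians of 0.58 and 0.23. No microglia gene (0 of 25) passed the 10-fold limit of the study in either direction in limma, with or without adjustment, a limit passed by 0.709% of all genes upward and 0.562% downward.

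The direction rested on the scaling. In processed signal before normalization, 22 of the 25 genes tested had a lower mean after OGD, with *Cd68*, *Ctss* and *Fcgr3* as the exceptions. Scaled to the spike-in controls, 1 gene was higher (*Cd68*), 19 were lower and 5 did not pass the test, beside 3.84% of all genes higher and 83.4% lower. The genes called higher below, apart from *Cd68*, *Ctss* and *Fcgr3*, thus had a lower signal after OGD, by less than the median of all genes. In the other direction, normexp background correction in place of the processed signal turned *Tmem119*, *Gpr34*, *Trem2*, *Irf8* and *Mrc1* to positive values, and *Sall1* alone was still called lower. With 2 samples per group an exact permutation test of a single gene cannot go below *p* = 0.333. The limma *p*-values and standard errors rest on the spread between these samples only, with each probe's own spread drawn toward that of all probes tested. The study's methods describe wells seeded from separate cultures of different pups, and the labels do not tie each sample to a culture.

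**Figure D3:**
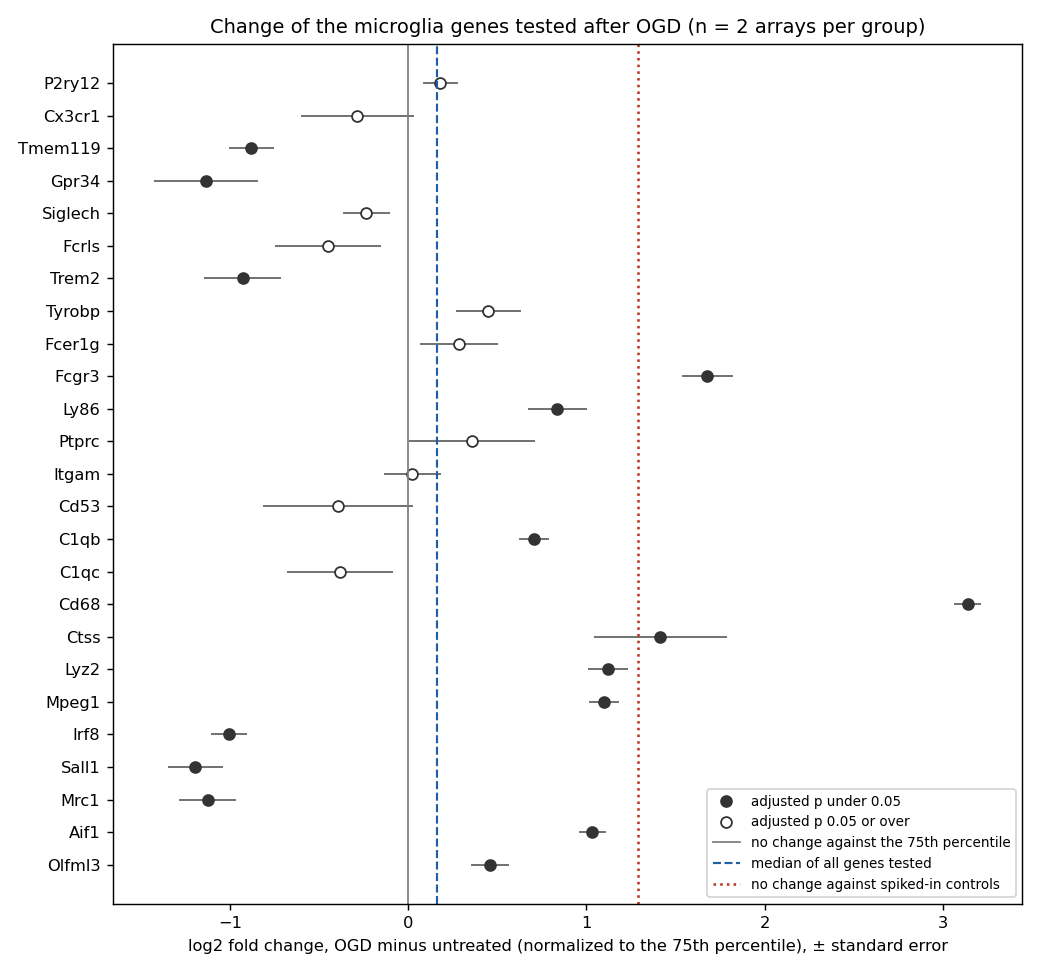
Log2 fold change (OGD minus untreated, normalized to the 75th percentile of each array) with its standard error for the 25 microglia genes tested, 2 arrays per group, filled where the adjusted p was under 0.05. The grey line marks no change against the 75th percentile, the blue dashed line the median of all genes (0.16), and the red dotted line no change against the spike-in controls. *Cd68* lies far right of every line, *Fcgr3* and *Ctss* lie right of the dotted line, and the other 22 genes lie left of it.

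Of the 5 lysosomal and phagocytic genes 4 were tested, and all 4 were called higher relative to the 75th percentile (37.1% of all genes), of which *Lyz2* and *Mpeg1* had a negative value with the spike-in scaling. *Laptm5* was at background. *Cd68*, a glycoprotein of lysosomes and late endosomes, read 1157 and 1213 in untreated AECs and 4301 and 3778 after OGD. The groups did not overlap, and its signal was raised on both OGD arrays. The log2 fold change was 3.14 (SE 0.08, adjusted *p* = 0.000719), that is 8.81-fold, and it was 1.85 when scaled to the spike-in controls. The second, dimmer probe gave 2.92 and 1.64 on the same scales.

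*Ctss*, which encodes the lysosomal protease cathepsin S, read 90.6 and 83.7 in untreated AECs and 136 and 59.1 after OGD. The OGD arrays lay on either side of the untreated ones in processed signal, and the log2 fold change was 1.42 (SE 0.37, adjusted *p* = 0.0344) against 0.13 with the spike-in scaling (adjusted *p* = 0.746). Its call was lost without either untreated replicate. *Lyz2* (lysozyme) read 56.0 and 48.5 in untreated AECs and 47.1 and 40.7 after OGD, a log2 fold change of 1.12 relative to the 75th percentile and −0.17 relative to the spike-in controls. *Mpeg1* read 183 and 176, then 154 and 143, with 1.1 and −0.19 on these scales. Neither *Lyz2* nor *Mpeg1* passed the test with the spike-in scaling (adjusted *p* = 0.216 and 0.136).

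The immune receptors and their adaptors were divided. *Fcgr3*, a receptor for the constant part of antibodies, read 10.3 and 11 in untreated AECs and 12.5 and 13.8 after OGD. These readings are less than 2 times the detection limit, and the groups did not overlap. Its log2 fold change was 1.68 (SE 0.14, adjusted *p* = 0.0021), and 0.39 with the spike-in scaling (adjusted *p* = 0.0537). *Ly86* (MD-1, a partner of a Toll-like receptor homologue) read 14.1 and 11.1, then 8.70 and 8.55, with 0.84 relative to the 75th percentile (adjusted *p* = 0.0155) and −0.45 relative to the spike-in controls. Its call was lost without untreated replicate 2 (adjusted *p* = 0.0616) or OGD replicate 2 (0.0521).

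*Trem2*, the lipid-sensing receptor that signals through TYROBP, was called lower, with its second OGD reading not well above background. It read 47.8 and 54.1 in untreated AECs and 13.3 and 8.01 after OGD, without overlap, at a log2 fold change of −0.93 (SE 0.21, adjusted *p* = 0.0236) and −2.22 with the spike-in scaling. The call relative to the 75th percentile was lost without untreated replicate 1 or 2 (adjusted *p* = 0.0821 and 0.115), as was that of *Gpr34* below (0.0998 and 0.134). The adaptor of *Trem2*, *Tyrobp*, read 28.4 and 22.4, then 12.9 and 13.7, and *Fcer1g* read 69.1 and 53.5, then 35.3 and 23.1. Both adaptors were dimmer on the OGD arrays in processed signal. Relative to the 75th percentile they were at 0.45 and 0.29 and did not pass the test (adjusted *p* = 0.0979 and 0.311), and with the spike-in scaling they were lower, at −0.84 and −1.0.

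Among the receptors of the homeostatic surface, 6 of 7 were tested. By the brightest probe none (0) was higher and 2 were lower, beside 37.1% and 27.9% of all genes, but *Siglech* was called higher by its probe without shared stretches. *Cx3cr1*, *Gpr34* and *Fcrls* entered the test through their untreated signal alone. Of *P2ry12*, *Siglech* and *Tmem119*, detected on all 4 arrays, *Tmem119* alone was called lower by the brightest probe (26.9% of all genes so detected). *Tmem119*, a membrane protein used to tell microglia from other macrophages, read 150 and 162 in untreated AECs and 38.5 and 27.9 after OGD. The drop in signal was seen on both OGD arrays, with a log2 fold change of −0.88 (SE 0.13, adjusted *p* = 0.00675) and −2.17 with the spike-in scaling, and the first of these calls was lost without untreated replicate 2 (adjusted *p* = 0.0554). *Gpr34*, a lysophospholipid receptor, read 11.2 and 12.7, then 2.92 and 1.51, the latter both below the limit. Its fitted log2 fold change was −1.13 (adjusted *p* = 0.0315). A bound from the detection limit gave no fold relative to the 75th percentile and at least 1.69-fold lower with the spike-in scaling.

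By their brightest probe, the other homeostatic receptors did not pass the test relative to the 75th percentile. *P2ry12*, an ADP receptor that guides microglial processes, read 19.5 and 21.5 in untreated AECs and 9.97 and 8.04 after OGD, and stood at 0.18, next to the median of all genes. *Fcrls*, an Fc receptor-like gene, read 32.9 and 20.0, then 8.66 and 6.08, at −0.45, and *Cx3cr1* was at −0.29. With the spike-in scaling all of these were lower, *P2ry12* at −1.11, *Fcrls* at −1.74 and *Cx3cr1* at −1.57, and *Cx3cr1*, dim on both OGD arrays, was at least 1.76-fold lower. *Siglech* had an unsettled direction: its repeat-bearing probe was at −0.23 (adjusted *p* = 0.192) and the probe without shared stretches at 0.90 (adjusted *p* = 0.0244), which turned to −0.39 with the spike-in scaling. For *Itgam* the probes without shared stretches were at 0.33 and 0.75 (adjusted *p* = 0.315 and 0.0964) and the repeat-bearing one at 0.02 (adjusted *p* = 0.907), and with the spike-in scaling these were −0.96, −0.54 and −1.27. The values 0.75 and −0.54 were fitted to a probe not well above background on either OGD array. As a bound, that probe was at least 1.34-fold lower with the spike-in scaling, with no fold relative to the 75th percentile.

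The pan-leukocyte surface genes did not pass the test relative to the 75th percentile. *Ptprc* (CD45) read 10.5 and 11.7 in untreated AECs and 4.21 and 7.11 after OGD, and *Cd53*, a tetraspanin, read 21.0 and 17.9, then 8.97 and 3.61. Their fitted log2 fold changes were 0.36 and −0.39 relative to the 75th percentile, and −0.93 and −1.68 with the spike-in scaling, where both were lower (adjusted *p* = 0.038 and 0.0105). *Ptprc* was not well above background on either OGD array, so its values after OGD are bounds: at least 1.56-fold lower with the spike-in scaling, and no fold relative to the 75th percentile. *Cd53* was not well above background on the second OGD array. Without OGD replicate 1 both genes and *C1qc* passed the test, but the OGD reading left was then a single one below detection for each, with its spread taken from the untreated group. Without OGD replicate 2 the fitted values of *Ptprc* (−0.12), *Cd53* (0.17) and *C1qc* (0.01), and of *Cx3cr1* (0.11), had the opposite sign, so the direction of these values relative to the 75th percentile rested on the second OGD array.

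The chains of complement C1q, which assemble into a single complex and initiate the classical pathway, were read very differently. *C1qb* read 52.3 and 57.1 in untreated AECs and 37.1 and 31.8 after OGD, with a log2 fold change of 0.70 (SE 0.08, adjusted *p* = 0.00427) relative to the 75th percentile and −0.59 relative to the spike-in controls. *C1qc* was printed 10 times on each array, which shows the spread of a dim probe. Its median over spots was 11.3 and 10.6 in untreated AECs and 4.73 and 2.32 after OGD, and 9 and 10 of the spots were well above background in untreated AECs against 0 and 0 after OGD. On a single array the spots ranged from 7.14 to 21.2 (untreated replicate 1), with a coefficient of variation of 33.3%. The fitted value of *C1qc* was −0.38 (adjusted *p* = 0.314), with no fold as a bound relative to the 75th percentile and at least 1.53-fold lower with the spike-in scaling. *C1qa* was not tested, since it was detected on 1 array of each group and read 1.54 on the other OGD array.

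Of the 3 transcription factors, *Sall1* and *Irf8* could be tested, and both were called lower (27.9% of all genes). *Sall1*, which maintains microglial identity and is also active in neural progenitors, read 2356 and 2450 in untreated AECs and 492 and 334 after OGD. Its log2 fold change was −1.19 (SE 0.15, adjusted *p* = 0.005) relative to the 75th percentile and −2.48 with the spike-in scaling. *Irf8*, an interferon regulatory factor needed by microglia, read 34.8 and 39.8, then 7.86 and 6.51, at −1.01 (SE 0.10, adjusted *p* = 0.00288) and −2.30 on these scales, with the second OGD reading not well above background, so that *Irf8* passed the filter through the untreated arrays. The groups did not overlap for either gene. The border macrophage gene *Mrc1* (CD206) read 8.74 and 11.6 and was at background after OGD, at 1.92 and 1.65, with a fitted value of −1.13 and, with the spike-in scaling, a bound of at least 1.43-fold lower, but no fold as a bound relative to the 75th percentile.

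Of the remaining genes, *Aif1* and *Olfml3* were called higher. *Aif1* encodes IBA1, the cytoplasmic protein by which microglia are usually stained. It read 55.6 and 55.0 in untreated AECs and 46.8 and 40.7 after OGD, with a log2 fold change of 1.03 (SE 0.08, adjusted *p* = 0.00158) relative to the 75th percentile and −0.26 relative to the spike-in controls. *Olfml3*, a secreted glycoprotein, read 411 and 452, then 260 and 201, at 0.46 (adjusted *p* = 0.0253) and −0.83. Its probes disagreed, with 0.49 for one (143 and 129, then 75.8 and 71.4) and −0.37 for another (88.3 and 89.0, then 28.4 and 24.6), both past the test, and −0.80 and −1.66 with the spike-in scaling. The call of *Olfml3* was lost on leaving out either untreated array or OGD replicate 1 (adjusted *p* = 0.146, 0.096 and 0.0512) and with the replicate block (0.0592).

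The receptor inhibited by PLX3397 and its ligands were read in the same cultures. *Csf1r* read 235 and 220 in untreated AECs and 198 and 190 after OGD with its brightest probe, at a log2 fold change of 1.14 (adjusted *p* = 0.00209) relative to the 75th percentile and −0.15 relative to the spike-in controls. Its other probes were at 0.48 and 0.49 and did not pass the test, and were at −0.81 and −0.80 with the spike-in scaling. *Il34* read 1214 and 1284, then 338 and 330, and was lower on both scales (−0.53, adjusted *p* = 0.0125, and −1.82). The probes of *Csf1* disagreed: the brightest read 27306 and 27180, then 4707 and 3804, at −1.31, whereas the other probes above background gave 1.28 and 1.24 relative to the 75th percentile and −0.01 and −0.05 relative to the spike-in controls. Of 18 genes of CSF1R and TYROBP signaling, 15 were tested, of which 5 were higher and 8 lower (37.1% and 27.9% of all genes), with a median of −0.53 relative to the 75th percentile. Among the 13 detected on all 4 arrays, 4 were higher and 7 lower (41.0% and 26.9% of all genes so detected). *Runx1* (2.20) and *Irf5* (1.93), both transcription factors, were highest, at 0.91 and 0.64 with the spike-in scaling. *Lyn* (−1.63, a Src-family kinase) was the lowest of those detected on all 4 arrays. *Inpp5d*, the phosphatase SHIP1, read 21.0 and 24.6 in untreated AECs and was at background after OGD, at 1.28 and 1.56, that is at least 1.32-fold lower relative to the 75th percentile and at least 3.22-fold lower with the spike-in scaling. With the spike-in scaling 12 of the 15 were lower and 2 higher, beside 83.4% and 3.84% of all genes.

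Of 37 myeloid genes outside the 31, 26 (70.3%) were well above background on both untreated arrays, a share close to the 70.5% of all genes, and 20 (54.1%) on both OGD arrays, against 62.4%. Relative to the 75th percentile, 11 of 27 tested were higher and 2 lower (37.1% and 27.9% of all genes), with a median of 0.30, and with the spike-in scaling 1 was higher and 21 lower (3.84% and 83.4% of all genes), with a median of −0.99. Among the 19 detected on all 4 arrays, 10 were higher and 1 lower relative to the 75th percentile (41.0% and 26.9% of all genes so detected), with a median of 0.67. *Havcr2* (TIM-3, an inhibitory receptor) read 9.19 and 9.95, then 36.1 and 13.7, at 2.59 (adjusted *p* = 0.0106), and 1.30 with the spike-in scaling, but 1 of the untreated readings was not well above background, and the gene entered the test through the OGD arrays. *Fcgr2b*, the inhibitory antibody receptor, read 46.9 and 44.3, then 52.6 and 47.7, at 1.51, and 0.22 with the spike-in scaling. *Tlr7*, an endosomal RNA sensor, read 28.9 and 59.7 in untreated AECs and was not well above background after OGD, at 4.72 and 1.98. It entered the test through its untreated signal alone, at a fitted value of −2.39 (adjusted *p* = 0.0219). As a bound, it was at least 2.41-fold lower relative to the 75th percentile and at least 6.10-fold lower with the spike-in scaling. *Coro1a*, an actin-binding protein of leukocytes, was at −0.96, and −2.24 with the spike-in scaling.

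Genes of the disease-associated microglia program, many of them also expressed by astrocytes and other cells, were mostly bright. Of 15 such genes 12 were tested, and 10 were higher and none (0) lower relative to the 75th percentile (37.1% and 27.9% of all genes), with a median of 0.85 (−0.44 with the spike-in scaling). The highest were *Lpl* (1.18, lipoprotein lipase), *Gpnmb* (1.16, a lysosomal glycoprotein) and *Ctsd* (1.05, cathepsin D), which with the spike-in scaling were at −0.11, −0.13 and −0.24, and on that scale 8 of the 12 were lower and none (0) higher (83.4% and 3.84% of all genes). Complement genes other than C1q were all detected: 10 of 11 were higher and none (0) lower relative to the 75th percentile, beside the same shares of all genes, led by *Serping1* (1.22), *C2* (1.19) and *C3* (1.14), with 6 lower and none (0) higher relative to the spike-in controls, where these 3 were at −0.07, −0.10 and −0.14. Among 10 border macrophage and monocyte markers on the array, 5 were detected in untreated AECs and 2 after OGD, with *F13a1*, a coagulation factor subunit, at 0.81 relative to the 75th percentile and −0.48 with the spike-in scaling. *Ms4a7*, a macrophage membrane protein, read 13.8 and 10.7 and was at background after OGD, at 2.38 and 1.55, a bound of at least 1.73-fold lower with the spike-in scaling and no fold relative to the 75th percentile. Of 11 blood cell markers, 3 were detected in each group.

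All 15 astrocyte markers were well above background on both arrays of each group, as were 12 of 13 oligodendrocyte markers in untreated AECs and 11 after OGD. NG2 glia markers numbered 7 of 7 and 6 of 7, meningeal fibroblast markers 8 of 8 and 7 of 8, neuron markers 8 of 9 and 7 of 9, and endothelial and mural markers 6 of 10 in both groups. Of the 15 astrocyte markers, 7 were higher and 2 lower after OGD relative to the 75th percentile (37.1% and 27.9% of all genes), with a median of 0.64 (−0.65 with the spike-in scaling), and 11 were lower and none (0) higher relative to the spike-in controls (83.4% and 3.84%). The share of any of the microglia genes' signal that came from these cells was not tested.

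**Figure D4:**
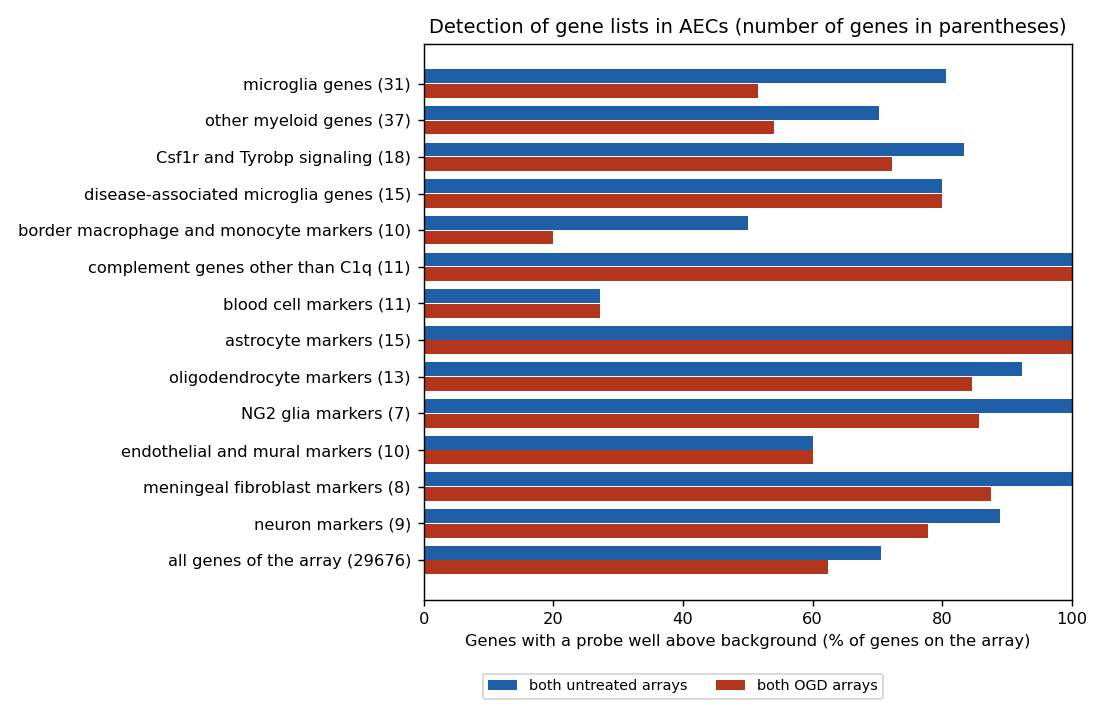
Share of the genes of each list (percent of its genes on the array, whose number is in parentheses) detected by at least 1 probe on both untreated arrays (blue bars) and on both OGD arrays (red bars). Astrocyte markers and complement genes other than C1q reach 100% in both groups, the microglia genes go from 80.6% to 51.6%, and the whole array goes from 70.5% to 62.4%.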

How the data were processed

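The RNA samples, 2 untreated and 2 OGD, were each read on 1 single-color mouse array, all on 1 slide and in 1 scan. The authors deposited an intensity per spot, the processed signal of Agilent Feature Extraction 11.5.1.1 (as the submitters' processing notes name it), background-subtracted within each array and not normalized between arrays. The table deposited for the whole series held the same intensity (largest difference 0).

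From the deposited intensity, without control and outlier spots, log2 was taken, repeat spots of a probe were averaged and the 75th percentile of each array was subtracted, as the methods of the study state. A probe counted as well above background where a fraction of 0.5 or more of its spots had that mark. The 28163 probes that did so in both samples of 1 group or of each were fitted with limma 3.58.1 in R 4.3.3, with Benjamini–Hochberg adjustment over all of them. A gene took the values of its brightest probe tested. In the spike-in scaling, the mean log2 signal of 9 control probes replaced the percentile. Shared stretches were searched over all probe sequences, on the strand given. Python 3.11.15, pandas 2.3.3, numpy 2.4.6 and matplotlib 3.10.9 were used, and the fit was tested on simulated data.

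All 31 genes are named, and of every other list up to 3 called genes in each direction with the largest change, plus *Csf1r*, *Csf1* and *Il34*, were eligible. Marker lists of blood and of other brain cell types are given by counts alone, and 1 further eligible gene is not reported here. The 31 genes and the other lists were chosen with earlier results of these data known. *Ly6c2* and *C1s* were not found by name on the array. Alternatives were the methods' t-test and the settings named in the closing section. For arrays, their number and the signal over background limit the precision.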

Additional observations from a re-analysis of the deposited data

How the results depend on the processing

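Against 9 microglia genes higher and 6 lower and a median log2 fold change of 0.18, the spike-in scaling gave 1, 19 and −1.11, and normexp background correction (offset 50) gave 21, 1 and 1.06. Under normexp the offset exceeds the signal of the dimmest probes, so by construction their differences approach the shift between the arrays' 75th percentiles. It turned *Cx3cr1* (1.13), *Tmem119* (0.18), *Gpr34* (1.05), *Fcrls* (0.94), *Trem2* (0.67), *Cd53* (1.04), *C1qc* (1.12), *Irf8* (0.71) and *Mrc1* (1.08). The spike-in scaling turned *P2ry12* (−1.11), *Tyrobp* (−0.84), *Fcer1g* (−1.0), *Ly86* (−0.45), *Ptprc* (−0.93), *Itgam* (−1.27), *C1qb* (−0.59), *Lyz2* (−0.17), *Mpeg1* (−0.19), *Aif1* (−0.26) and *Olfml3* (−0.83). The median was 0.028 with the percentile taken over detected probes, 0.36 without a filter on dim probes and, in a setting chosen after seeing the data, 0.33 without repeat-bearing probes, which put *Siglech* at 0.90. Requiring detection on all 4 arrays left 2 genes lower and a median of 0.58. This rule leaves out the genes dim after OGD, among them the lower *Gpr34*, *Trem2*, *Irf8* and *Mrc1*, while 9 genes were still called higher. The methods' t-test left 6 genes higher and 1 lower (6 and 4 before adjustment), and the 10-fold limit left 0 and 0. The t-test ended the calls of *Tmem119*, *Gpr34*, *Trem2*, *Ly86*, *Ctss*, *Sall1*, *Mrc1* and *Olfml3*, and *Irf8* alone was still lower. Leaving out each array in turn gave 6 to 9 genes higher, 3 to 8 lower and medians of 0.08 to 0.18. The lowest counts, 6 and 3, came without untreated replicate 2, which ended the calls of *Tmem119*, *Gpr34*, *Trem2*, *Ly86*, *Ctss* and *Olfml3*. Without untreated replicate 1 the count lower was 4, and *Gpr34*, *Trem2*, *Ctss* and *Olfml3* lost their calls, as *Ly86* did without OGD replicate 2. Detection moved by less than 1.5 times in every setting run, with 21 to 29 genes in untreated AECs and 12 to 23 after OGD. With the replicate block, 8 genes were higher and 6 lower (*Olfml3* was lost), and 17198 probes were called against 18334. The deviations of same-numbered samples correlated at −0.06 over 2 pairs, so the numbers were not taken to pair the samples. The other settings (quantile and median scaling, outlier spots kept, the series table, limma with a trend, the mean over probes, a 2-fold limit) kept both counts within 1.5 times, with medians of 0.11 with quantile normalization and 0.29 with the mean over probes. Signal over background limits every gene within 2 times the detection limit.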
